A study of Mus musculus with 6 samples.

Results

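A set of 10 neutrophil genes, chosen by name, were followed through gene counts from the olfactory tissue of 6 mice. They comprise S100a8, S100a9, Retnlg, Ly6g, Mmp8, Csf3r, Cxcr2 and Il1b, here called the 8 mature genes, and the 2 granule precursor genes Ngp and Camp. These set names are labels, and the stage at which each gene was transcribed, that of Mmp8 included, was not tested. All 10 are among the 49164 genes with counts, and 9 of them were among the 19899 genes that passed the filter on low counts, the exception being Ly6g. The 3 control mice are labelled WT with no treatment and a normal bulb. The 3 sFlt1 mice carry camk2a-tTa and tet-sFlt1, and tetracycline was exchanged for fresh water at embryonic day 13.5. Soluble Flt1 is a decoy receptor for VEGF, and the Camk2a promoter is best known from forebrain neurons. All mice are described as c57Bl6/ICR crossbred males killed at 3 months, and the olfactory bulbs of sFlt1 replicates 1, 2 and 3 were at 28%, 29% and 14% of normal by MRI at 2 months. Whether the controls carried either transgene alone or had received tetracycline is not stated in the labels. The RNA came from dissected nasal conchae, which hold bone and blood vessels beside the epithelium.

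Neutrophils are short-lived white cells that are made in bone marrow, carried in blood and drawn into inflamed tissue. They fill their granules in sequence as they mature, so that transcripts for azurophil and then specific granule proteins, such as Ngp and Camp, belong mainly to precursors in the marrow. Circulating and tissue neutrophils are known for S100a8, S100a9, Csf3r, Cxcr2 and Il1b. In bulk tissue, fewer cells of a type and less RNA per cell cannot be told apart.

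The libraries held 28832424 to 46444862 counts, so 3 counts corresponded to between 0.0655 and 0.107 CPM (counts relative to library size, scaled with TMM factors). Markers of olfactory sensory neurons were present in every library, with Omp, the olfactory marker protein, at 466 CPM or more. Control replicate 1 and sFlt1 replicate 3 are labelled male but held Xist, the transcript of the inactive X chromosome, at 524 CPM or more, against 0.371 CPM or less in the other 4. The Y-linked genes Ddx3y and Eif2s3y had 0 counts in those 2 libraries, and the 5 sex-linked genes had a median log2 fold change of 0.026, which ran from -0.31 to 0.61 when single libraries were left out. Control replicate 3 stood apart in brain transcripts, with Gad1, an enzyme of GABA synthesis, at 569 CPM against 27.4 CPM or less elsewhere.

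The promoters of S100a8, S100a9, Ngp and Camp are printed because these genes had the highest CPM in the library that carried most neutrophil transcripts. Each runs from 250 bases before to 50 bases after the RefSeq start (GRCm38.p6, a build other than that of the counts). Windows are chr3:90668821-90669120 on the plus strand for S100a8, chr3:90695672-90695971 on the minus strand for S100a9, chr9:110419558-110419857 on the plus strand for Ngp and chr9:109849407-109849706 on the minus strand for Camp. Capitals mark matches on either strand to TTNNGNAA, a form bound by C/EBP factors that drive granule genes, or to GAGGAA, the core bound by the myeloid factor PU.1.
S100a8: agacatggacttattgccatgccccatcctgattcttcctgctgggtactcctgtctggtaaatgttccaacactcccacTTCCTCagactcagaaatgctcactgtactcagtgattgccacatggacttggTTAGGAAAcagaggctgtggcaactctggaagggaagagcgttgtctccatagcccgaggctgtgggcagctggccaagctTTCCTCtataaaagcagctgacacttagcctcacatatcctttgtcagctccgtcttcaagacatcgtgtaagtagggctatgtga
S100a9: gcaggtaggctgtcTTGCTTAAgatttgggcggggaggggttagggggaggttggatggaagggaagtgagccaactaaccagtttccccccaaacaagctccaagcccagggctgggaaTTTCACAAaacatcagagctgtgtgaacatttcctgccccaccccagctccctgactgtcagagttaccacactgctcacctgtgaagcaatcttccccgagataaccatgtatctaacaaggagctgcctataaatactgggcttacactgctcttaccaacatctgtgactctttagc
Ngp: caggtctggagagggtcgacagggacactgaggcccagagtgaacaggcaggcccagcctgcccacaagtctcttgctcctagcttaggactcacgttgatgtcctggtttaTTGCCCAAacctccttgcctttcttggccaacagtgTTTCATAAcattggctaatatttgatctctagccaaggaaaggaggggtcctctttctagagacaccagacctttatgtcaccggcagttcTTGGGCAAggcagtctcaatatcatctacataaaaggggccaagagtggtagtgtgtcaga
Camp: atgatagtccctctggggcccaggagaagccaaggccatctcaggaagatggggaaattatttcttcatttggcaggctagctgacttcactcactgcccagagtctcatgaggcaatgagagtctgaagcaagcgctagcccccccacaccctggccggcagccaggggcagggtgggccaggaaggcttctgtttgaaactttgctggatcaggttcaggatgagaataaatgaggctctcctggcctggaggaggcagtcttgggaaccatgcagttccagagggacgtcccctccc
The Ngp window holds 3 matches to TTNNGNAA, the S100a9 window 2 and the S100a8 window 1, while that of Camp has none of either motif. Only the S100a8 window among these 4 holds GAGGAA, with 2 matches on the minus strand. Over the 10 genes, 7 have TTNNGNAA in a window and 5 have GAGGAA, against 40.7% and 28.3% of 32851 windows of the same length, and no match to one motif overlapped a match to the other. Ly6g has 2 windows, which overlap, and a match is a description of letters and not of binding.

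All 10 genes were highest in one library, sFlt1 replicate 1, and for none of them did the 2 groups separate. sFlt1 replicate 1 is the highest library for 16.9% of all genes tested, and the groups are without overlap for 18.3%. Over the 10 genes, sFlt1 replicate 1 stood 1.29 to 6.17 times above the next highest library, with a median of 3.34 times. The lowest library was control replicate 2 for 6 genes and sFlt1 replicate 3 for 4. sFlt1 replicate 2 lay within the range of the controls for 8 genes and sFlt1 replicate 3 for 6.

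S100a8 and S100a9 encode the partner subunits of calprotectin, an antimicrobial and inflammatory protein that neutrophils carry in large amounts and that stressed epithelium can also make. S100a8 (ENSMUSG00000056054, chromosome 3, 90576285 to 90577342, GRCm39) was at 47.6, 8.37 and 32.1 CPM in control replicates 1, 2 and 3, against 248, 41.9 and 9.999 CPM in sFlt1 replicates 1, 2 and 3. Its partner S100a9 (chromosome 3, 90599939 to 90603028) was at 30.1, 7.44 and 32.0 CPM in the control libraries, against 201, 38.4 and 9.33 CPM in the sFlt1 libraries. In both genes, sFlt1 replicate 1 was far above the rest, while sFlt1 replicate 3 was nearly as low as control replicate 2, the lowest of all. Expressed as log2 of sFlt1 over control, the estimate for S100a8 was 1.77 (SE 1.12, edgeR adjusted p = 0.58). That of S100a9 was 1.84 (SE 1.06, edgeR adjusted p = 0.55). Without sFlt1 replicate 1 these estimates were -0.15 and 0.079, so the difference between the groups rested on that mouse.

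Retnlg (chromosome 16, 48692984 to 48694859), a resistin-like protein secreted by neutrophils, was at 2.05, 0.926 and 2.84 CPM in the control libraries, against 9.79, 1.66 and 1.40 CPM in the sFlt1 libraries. Ly6g (chromosome 15, 75027089 to 75030975), the surface protein that defines mouse neutrophils in cell sorting, had 7, 3 and 10 counts in controls and 38, 8 and 0 in sFlt1 mice. Mmp8 (chromosome 9, 7558457 to 7568486), the neutrophil collagenase, was at 1.96, 0.499 and 2.48 CPM in the control libraries, against 8.04, 1.88 and 1.01 CPM in the sFlt1 libraries. Outside sFlt1 replicate 1, each of the 3 genes had its highest value in control replicate 3. The estimates for Retnlg and Mmp8 were both 1.13 (SE 0.86 and 0.91, edgeR adjusted p = 0.64 and 0.66). Ly6g was too low for the edgeR test, its 0 counts in sFlt1 replicate 3 allow up to 0.0690 CPM, and it belongs to a family of close paralogs between which reads may have been shared.

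Csf3r and Cxcr2 are the receptors through which neutrophils respond to the growth factor G-CSF and to CXC chemokines. Csf3r (chromosome 4, 125918343 to 125938233) was at 2.34, 1.64 and 2.97 CPM in the control libraries, against 5.65, 1.79 and 1.26 CPM in the sFlt1 libraries, which gave 0.32 on the log2 scale (SE 0.64, edgeR adjusted p = 0.87). Cxcr2 (chromosome 1, 74193148 to 74200405) was at 1.19, 0.606 and 1.48 CPM in the control libraries, against 3.86, 0.938 and 1.06 CPM in the sFlt1 libraries, which gave 0.83 on the log2 scale (SE 0.69, edgeR adjusted p = 0.67). The excess of sFlt1 replicate 1 over the next library was 1.90 times for Csf3r and 2.62 times for Cxcr2, smaller than the 5.22 and 5.23 times of S100a8 and S100a9. Il1b (chromosome 2, 129206490 to 129213059), a cytokine made by neutrophils and also by macrophages, varied least. It was at 1.54, 1.10 and 1.68 CPM in the control libraries, against 2.39, 1.86 and 0.598 CPM in the sFlt1 libraries, and its estimate was 0.16 (SE 0.58, edgeR adjusted p = 0.93).

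Ngp and Camp are stored in specific granules, Ngp as a cystatin-like protein and Camp as the cathelicidin from which an antimicrobial peptide is cut. Ngp (chromosome 9, 110248815 to 110252080) was at 8.90, 1.53 and 13.2 CPM in the control libraries, against 40.3, 5.78 and 2.99 CPM in the sFlt1 libraries. Camp (chromosome 9, 109676447 to 109678685) was at 2.85, 1.10 and 4.27 CPM in the control libraries, against 26.4, 3.60 and 0.850 CPM in the sFlt1 libraries. sFlt1 replicate 1 was highest for both, as it was for the mature genes, and the other sFlt1 mice did not exceed control replicate 3. The log2 fold changes were 1.05 for Ngp (SE 1.09, edgeR adjusted p = 0.74) and 1.90 for Camp (SE 1.17, edgeR adjusted p = 0.57). Without sFlt1 replicate 1 they were -0.80 and -0.26.

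**Figure D1:**
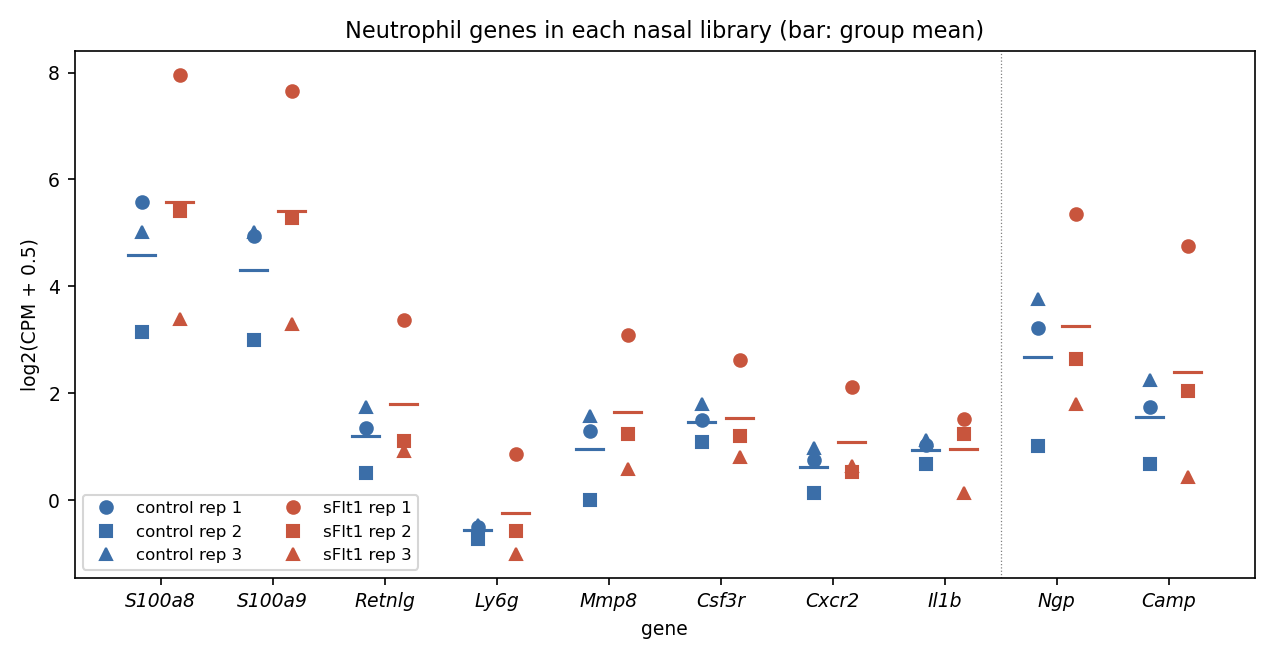
Level of each neutrophil gene in each library, as log2(CPM + 0.5), with controls in blue, sFlt1 mice in red, the replicate number as the symbol and a bar at each group's mean. The red circle of sFlt1 replicate 1 is the highest point for all 10 genes, and the dotted line separates the 8 mature genes from Ngp and Camp.

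Of the 19899 genes tested by edgeR, 0.00% passed at an adjusted p under 0.05 and 11.1% had an unadjusted p under 0.05, while 0 of the 9 tested neutrophil genes did either. DESeq2 passed 2.19% of its genes and again 0 of the 10 neutrophil genes, with adjusted p-values of 0.37 or more. In the authors' deposited table the lowest adjusted p among the 10 was 0.45, for S100a9. With all libraries, the 9 tested genes had estimates above 0, as 51.3% of all tested genes did, and their median was 1.13 against 0.017 over all genes. Without sFlt1 replicate 1, 8 of 9 were below 0, and the median was -0.21 against -0.0025 over all genes. Leaving out the other libraries one at a time gave medians from 0.71, without control replicate 2, to 1.55, without control replicate 3 or sFlt1 replicate 3.

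The direction also differed between the sets of libraries with and without Xist reads. Between the 2 libraries with Xist reads, all 10 genes were lower in sFlt1 replicate 3 than in control replicate 1. Among the other 4 libraries, all 9 genes tested had estimates above 0, with a median of 1.64, and sFlt1 replicate 1 is one of the 2 sFlt1 mice there. With 1 mouse per group in the first set, the difference between the sets was not tested.

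**Figure D2:**
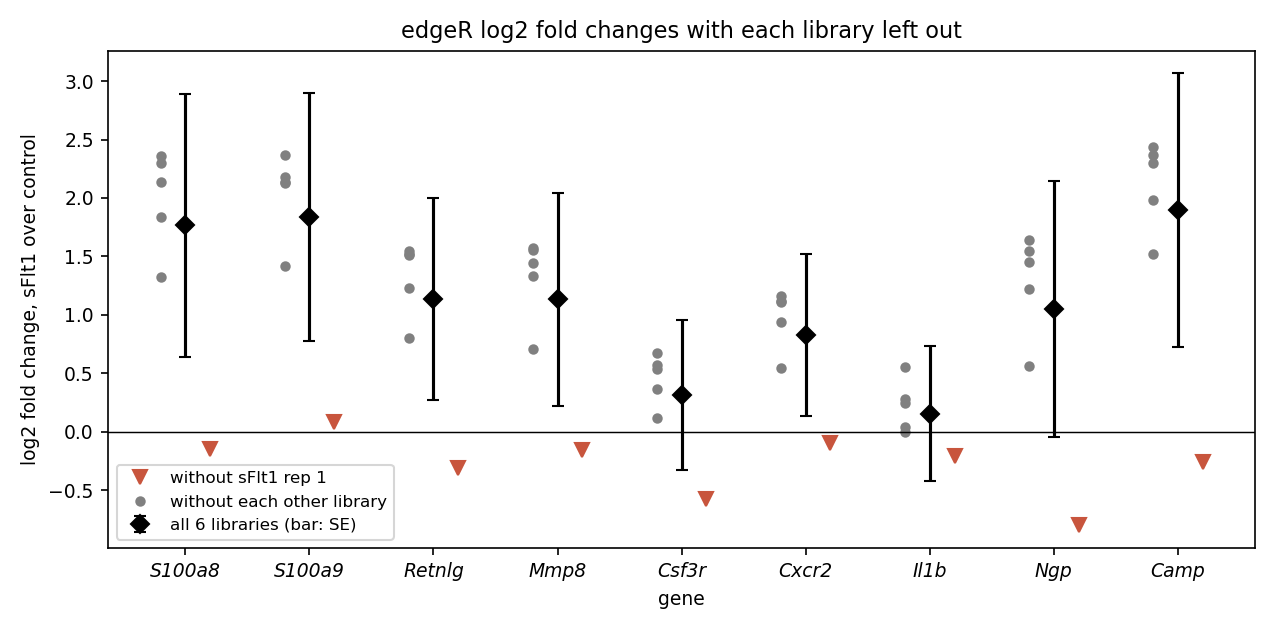
Log2 fold change of the 9 tested genes, sFlt1 over control, by edgeR. Black diamonds use all 6 libraries with the SE as a bar, red triangles leave out sFlt1 replicate 1 and grey dots leave out each other library in turn; the red triangles lie below 0 for 8 of 9 genes.

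The precursor genes were set against the mature genes within each library. Per 100 counts of S100a8, control replicates 1, 2 and 3 held 18.7, 18.3 and 41.0 counts of Ngp, and sFlt1 replicates 1, 2 and 3 held 16.2, 13.8 and 29.9. The exact 95% interval for counting error was 15.2 to 17.3 in sFlt1 replicate 1, which lies below that of control replicate 3, at 37.2 to 45.2. The library with the most neutrophil transcripts thus had less Ngp for its S100a8 than 4 of the other 5 libraries. Its interval overlapped those of control replicates 1 and 2, and that of sFlt1 replicate 2, at 12.1 to 15.7. Against the mean of all 8 mature genes, given below, the same library had the highest precursor level, at 1.40 on the log2 scale. Camp stood at 5.98, 13.2 and 13.3 counts per 100 S100a8 counts in controls and at 10.6, 8.60 and 8.51 in sFlt1 mice, and the sFlt1 values lay inside the range of the controls. Camp per 100 counts of Ngp fell into a low set of 32.0, 32.4 and 28.5 in control replicates 1 and 3 and sFlt1 replicate 3, and a high set of 72.1, 65.4 and 62.3 in control replicate 2 and sFlt1 replicates 1 and 2. Each of these sets held libraries of both groups.

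On the scale of mean log2(CPM + 0.5), Ngp and Camp stood above the mean of the 8 mature genes by 0.49, -0.13 and 0.91 in controls and by 1.40, 0.41 and 0.017 in sFlt1 mice. The group means were 0.43 ± 0.52 and 0.61 ± 0.71 (SD, n = 3 each), a difference of 0.18 that is smaller than either SD. It was -0.21 without sFlt1 replicate 1 and -0.094 without control replicate 2. With S100a8 and S100a9 taken out of the mature genes, the difference between the groups was 0.35. It was 0.21 with Mmp8 taken out and 0.11 with Il1b taken out.

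**Figure D3:**
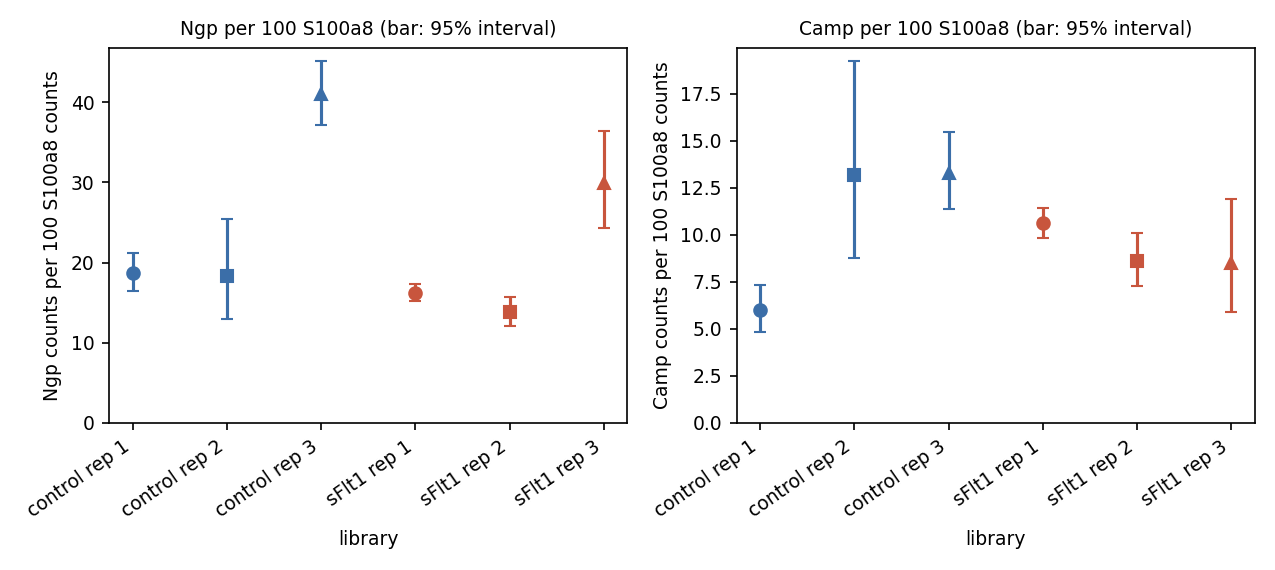
Counts of Ngp (left) and Camp (right) per 100 counts of S100a8 in each library, with exact 95% intervals that cover counting error only. Controls are blue and sFlt1 mice red; Ngp ranges from 13.8 to 41.0 and Camp from 5.98 to 13.3, with the groups overlapping in both.

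Per kilobase of exon (lengths from GENCODE M21), S100a8 and S100a9 were the highest of the 10 genes in controls, at 42.3 ± 28.5 and 44.4 ± 26.2 CPM per kilobase (SD, n = 3 here and below). S100a8 was the higher of these neighbours in control replicate 1, and S100a9 in control replicates 2 and 3. Ngp followed at 6.44 ± 4.82, Camp at 3.62 ± 2.09 and Retnlg at 3.27 ± 1.62, an order that was reversed in control replicate 2. Il1b at 0.756 ± 0.157, Mmp8 at 0.679 ± 0.424, Csf3r at 0.642 ± 0.185, Cxcr2 at 0.357 ± 0.145 and Ly6g at 0.190 ± 0.0672 formed the lower end. In sFlt1 mice S100a9 was at 159 ± 198 and S100a8 at 144 ± 186 CPM per kilobase, with an SD above the mean in each case. Calprotectin transcripts made up 67.8% to 82.1% of the summed CPM of the 10 genes in single libraries.

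The 10 genes moved together across the libraries. Over 45 pairs of genes, Pearson's r of log2(CPM + 0.5) over the 6 libraries had a median of 0.93, and 32 pairs were at 0.9 or more. The lowest r was 0.62, between Il1b and Cxcr2, while pairs without Il1b were all at 0.87 or more. These values describe 6 libraries in which 1 lies far from the rest. Among 16827 genes with a mean of 1 CPM or more, outside the 10, those most like the mature genes were Mpo (r = 0.99), Ndufb9 (r = 0.99), Fgr (r = 0.99), Ripor3 (r = 0.98) and Ly6c2 (r = 0.98). Mpo, the myeloperoxidase of azurophil granules, was at 0.890, 0.285 and 1.23 CPM in the control libraries, against 6.88, 0.851 and 0.161 CPM in the sFlt1 libraries. Fgr is a tyrosine kinase of myeloid cells, and Ly6c2 marks monocytes. Ndufb9, a subunit of the respiratory chain, ran from 29.9 to 41.3 CPM, so a high r did not need a large change. Those most like Ngp and Camp were Ly6c2, Fgr, Mpo and Ndufb9 again, with Wnt10a (r = 0.98).

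Genes of the earliest granules had the same highest library as the neutrophil genes, but Prtn3 did not follow their order in the controls. All 3 tested of 5 azurophil granule and progenitor genes were highest in sFlt1 replicate 1, with a median log2 fold change of 1.69. Prtn3, a serine protease of these granules, was at 1.87, 1.07 and 0.961 CPM in the control libraries, against 3.19, 2.29 and 0.965 CPM in the sFlt1 libraries. The summed CPM of the list ran from 1.39 to 3.56 in controls and was 14.9, 3.82 and 1.24 in sFlt1 mice. Without sFlt1 replicate 1 the median was -0.34. Of 22 other genes of mature neutrophils, 13 were tested, all with estimates above 0, with a median of 0.999, or 0.33 without sFlt1 replicate 1, and 10 were highest in that library. Clec4d and Clec4e, lectin receptors of myeloid cells, had the smallest p-values. Their estimates were 1.74 (SE 0.70) and 1.33 (SE 0.47), with edgeR adjusted p of 0.44 and 0.43. Clec4d was highest in sFlt1 replicate 3, at 2.02 CPM against 0.562 CPM in sFlt1 replicate 1. Clec4e was at 0.737, 0.589 and 0.621 CPM in sFlt1 replicates 1, 2 and 3. The highest of the 13 by level, Hdc at 0.41 (SE 0.26) and Pglyrp1 at 1.22 (SE 0.85), are an enzyme of histamine synthesis and an antibacterial protein. Which cells of the tissue made these transcripts was not tested. Of the NADPH oxidase, the complex that makes superoxide, 4 of 5 subunits were above 0 with a median of 0.60, or 0.052 without sFlt1 replicate 1, led by Cybb at 0.74 (SE 0.33) and Cyba at 0.73 (SE 0.40).

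Later granule genes were also mostly highest in sFlt1 replicate 1, though some were high in sFlt1 replicate 3 too. Of 10 other specific and gelatinase granule genes, 9 were tested, 8 of them with estimates above 0, with a median of 1.40 that became 1.21 once sFlt1 replicate 1 was left out. The highest library was sFlt1 replicate 1 for 6 of the 9. Lcn2, an iron-sequestering protein, was at 7.62, 12.6 and 6.44 CPM in the control libraries, against 20.8, 7.29 and 312 CPM in the sFlt1 libraries, where S100a8 in the last was at 9.999 CPM. Ltf, lactoferrin, was at 252, 180 and 90.6 CPM in the control libraries, against 1084, 165 and 812 CPM in the sFlt1 libraries. So both were high in sFlt1 replicate 3, a library in which the neutrophil genes were low. Whether neutrophils or other cells of the tissue were the source of Ltf and Lcn2 was not tested. Mmp9, the gelatinase, was at 26.4, 8.76 and 11.6 CPM in the control libraries, against 95.1, 83.0 and 28.5 CPM in the sFlt1 libraries, without overlap. The Mmp9 difference was 2.14 on the log2 scale (SE 0.58), with an adjusted p of 0.43 by edgeR and of 0.023 by DESeq2, and bone-resorbing cells also make it. DESeq2 also passed Lcn2 (adjusted p = 0.033), which edgeR put at 3.67 on the log2 scale (SE 1.33) with an adjusted p of 0.43.

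Of Csf3, which encodes G-CSF, and 6 ligands of Cxcr2, 3 passed the count filter and 0 of these were highest in sFlt1 replicate 1. Cxcl1 was at 0.682, 0.356 and 0.134 CPM in the control libraries, against 0.281, 0.0655 and 6.83 CPM in the sFlt1 libraries, high only in sFlt1 replicate 3, where Cxcr2 was at 1.06 CPM. For Cxcl5 the estimate was -0.77 (SE 0.51) and Ppbp, a platelet chemokine, -0.54 (SE 1.08), for a list median of -0.54, which was 0.030 without control replicate 3 and 0.30 without sFlt1 replicate 2. Of 9 other genes of the interleukin-1 system, 8 had estimates above 0 with a median of 0.74, or 0.47 without control replicate 2, and 2 were highest in sFlt1 replicate 1. Its decoy receptor Il1r2, at 0.237, 0.321 and 0.492 CPM in the control libraries, against 1.23, 0.240 and 2.02 CPM in the sFlt1 libraries, is also expressed by neutrophils. The receptor Il1r1 had 0.86 (SE 0.44) and its partner Il1rap 0.51 (SE 0.59).

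Markers of other tissues were high in the same library as the neutrophil genes. All 6 bone genes, all 4 tested muscle genes and 3 of 4 tested squamous epithelium genes had their highest value in sFlt1 replicate 1. Summed bone CPM was 3162, 354 and 275 in controls and 4878, 1384 and 62.9 in sFlt1 mice, led by Col1a1, with Ibsp from 12.3 to 186 CPM and Dmp1 from 1.38 to 30.3 CPM. Summed muscle CPM, from Acta1, Ckm, Mylpf, Tnnt3 and Myh4, was 80.8 in sFlt1 replicate 1, 19.7 in control replicate 2 and 2.91 or less in the others. Summed squamous CPM was 22.4 in sFlt1 replicate 1, with Krt6a at 12.2 CPM and Krt13 at 5.58 CPM, and 2.71 or less elsewhere. Sprr3, of the same list, was at 0.351 CPM there, below 4 of the other 5 libraries. Without sFlt1 replicate 1 the list medians were -0.76 for bone, -2.60 for muscle and -1.86 for squamous epithelium, against 0.97, 1.66 and 2.14 with it. The part of these tissues in the neutrophil values was not tested.

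Blood and other leukocyte lists gave a mixed picture. Summed erythroid CPM was 2056, 1178 and 847 in controls and 2198, 595 and 104 in sFlt1 mice, and 5 of 7 tested genes were highest in sFlt1 replicate 1, with a median of -0.40, or -1.80 without it. That median was 0.14 without sFlt1 replicate 3 and 0.017 without control replicate 1. Hbb-bs, a beta globin, was 1.15 times higher in sFlt1 replicate 1 than in the next library, at 1283 against 1114 CPM. For S100a8 this step was 5.22 times, and a wider step for Slc4a1 of the erythroid list is given in the closing observations. In mean log2(CPM + 0.5), the erythroid list stood 1.56 above its mean over the libraries in sFlt1 replicate 1, and the mature neutrophil genes 1.69. In control replicate 1 these values were 0.99 and 0.035. Hba-a1 and Hba-a2, the alpha globins, had log2 fold changes of -0.79 (SE 0.89) and -0.81 (SE 0.91). Macrophage and monocyte genes had 8 of 9 estimates above 0 with a median of 0.42, and their sums overlapped between groups, at 54.2 to 110 CPM in controls and 88.1 to 149 CPM in sFlt1 mice. Cd68 had 1.47 (SE 0.49), C1qb 0.61 (SE 0.44), C1qa 0.38 (SE 0.44) and Csf1r 0.16 (SE 0.37). Eosinophil, basophil and mast cell genes summed to 19.0 CPM in sFlt1 replicate 1 and to 5.55 CPM or less in the others, with a median estimate of 0.62, or -1.54 without sFlt1 replicate 1. In sFlt1 replicate 1 their Prg2, of eosinophil granules, was at 13.3 CPM, Epx at 1.58 CPM, Siglecf at 0.772 CPM and Cpa3, a mast cell protease, at 1.68 CPM. Of the 4 tested genes of that list, 3 were highest in that library, and 1 had an estimate below 0, at -0.55. Of platelet genes 2 of 5 were tested, with Itga2b at 0.12 (SE 0.27) and Pf4 at -0.20 (SE 0.61), and of precursor B cell genes 1 of 5, Vpreb3 at 0.61 (SE 0.43). The part of blood or of other leukocytes in the neutrophil values was not tested.

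**Figure D4:**
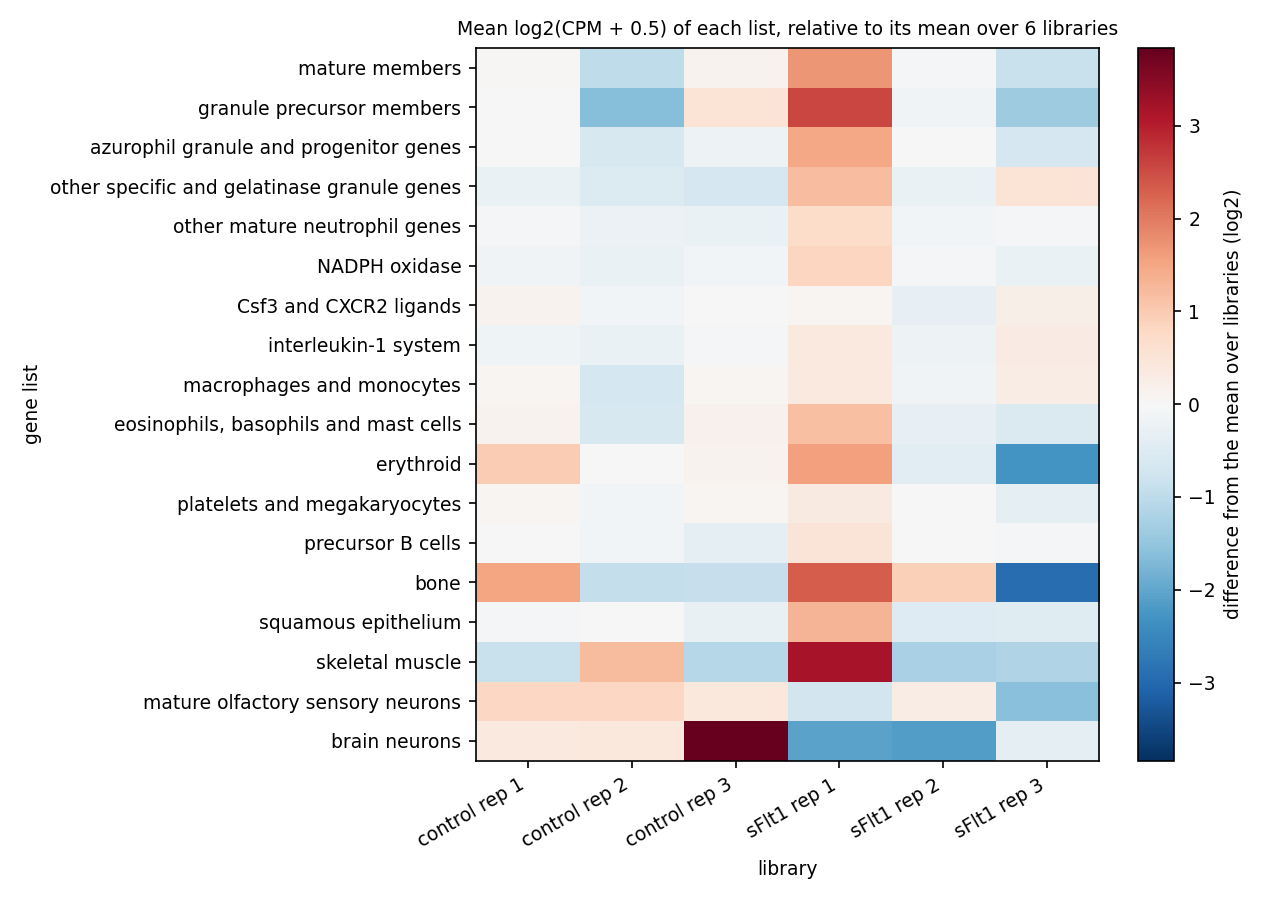
Mean log2(CPM + 0.5) of each gene list in each library, relative to the list's mean over the 6 libraries, with red above and blue below that mean. In sFlt1 replicate 1 the mature neutrophil genes stand 1.69 and the precursors 2.57 above their means, bone genes 2.32 and muscle genes 3.15. Erythroid genes stand 1.56 above their mean in that library, and macrophage genes 0.37.

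Neuronal markers were lower in sFlt1 replicate 1 than in any control, but their order over the sFlt1 mice was not the reverse of that of the neutrophil genes. Summed CPM of 8 markers of mature olfactory sensory neurons was 8730 to 11641 in controls and 3936, 7703 and 2247 in sFlt1 mice, so the lowest neuronal sum belonged to sFlt1 replicate 3. That library was also the lowest sFlt1 library for each of the neutrophil genes except Cxcr2. Omp differed by -1.34 on the log2 scale (SE 0.58), Ano2, a chloride channel of cilia, -1.29 (SE 0.43), Stoml3 -1.13 (SE 0.40) and Gnal -1.12 (SE 0.48). All 8 estimates were below 0, with a median of -1.14. The 5 markers of brain neurons were below 0 as well, with a median of -4.91, or -1.95 without control replicate 3, including Th at -5.89 (SE 1.44) and Snap25 at -1.72 (SE 0.44), and their sum was highest in control replicate 3.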

How the data were processed

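Bulk RNA libraries from 6 mice were made from 200 ng of total RNA each, per the labels' protocols. Per the submitters' processing notes, the build was GRCm39 and the tools included DESeq2 1.26.0 and HTSeq 2.0.1, with TopHat2 2.2.1 and cutadapt 3.5 listed as well. How strand was handled in counting is not stated, so reads of overlapping or antisense genes cannot be separated. The deposited table holds raw counts for 55414 genes, of which 6250 carried no values, and the authors' DESeq2 log2 fold changes and adjusted p-values, per the file headers. Columns were matched to mice by the spreadsheet letters in the sample descriptions, and 48 further columns of per-sample values were not used.

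The quasi-likelihood test of edgeR 4.0.16 (run in R 4.3.3 with TMM factors, filterByExpr and no covariate) was applied to the counts of all genes, with Benjamini-Hochberg adjustment and a threshold of 0.05. Each SE was obtained from the estimate and its F statistic. The code was checked on simulated counts. Alternatives were DESeq2 1.42.0, limma 3.58.1 (voom), other scalings and filters, a replicate block, and leaving out libraries. From each list the 2 genes with the smallest p and the 2 highest by CPM are named, and the 5 genes most correlated with each set. One result under this rule is not reported here. Names outside this rule (Tnnt3, Myh4 and those in the closing observations) were chosen after their values were seen. The members and lists were chosen with earlier results of these data known. Values on a log scale use a pseudocount of 0.5 CPM. The library pair with the closest counts, control replicates 1 and 2, still differed beyond sampling noise (chi-square over degrees of freedom 76.5). Intervals and floors (3 counts) cover counting error only. The labels number replicates without saying that each came from a separate animal, though the sFlt1 samples carry different bulb sizes. Each library is treated here as a separate mouse, and p-values measure the spread between these samples.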

Additional observations from a re-analysis of the deposited data

How the results depend on the processing

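No neutrophil gene passed under any of the 14 alternatives, while the size of the estimates varied and, for all tested genes but S100a9, so did the direction. Leaving out each mouse in turn gave log2 fold changes from -0.15 to 2.36 for S100a8, 0.079 to 2.37 for S100a9, -0.57 to 0.67 for Csf3r, -0.099 to 1.16 for Cxcr2, -0.31 to 1.55 for Retnlg, -0.21 to 0.55 for Il1b, -0.80 to 1.64 for Ngp, -0.26 to 2.44 for Camp and -0.15 to 1.58 for Mmp8. The lowest of each range was without sFlt1 replicate 1. With limma voom, the median of the 9 tested genes was 0.55 against 1.13, with S100a9 at 0.92, S100a8 at 0.84, Mmp8 at 0.74, Camp at 0.63, Retnlg at 0.55, Cxcr2 at 0.52, Ngp at 0.32, Csf3r at -0.031 and Il1b at -0.077, and without control replicate 2 Il1b was at -0.0024. The difference of precursors minus mature genes ranged from -0.21 to 0.48 when single mice were left out, against 0.18 with all, and moved by less than the SD of the controls under the other alternatives too.

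Over all genes, DESeq2 passed 440 (127 higher, 313 lower) where edgeR passed 0 (2204 at an unadjusted p under 0.05). Leaving out single mice gave 0 to 1. With the replicate number as a replicate block, edgeR again passed 0, with Il1b at -0.0031 and a median of 0.83 over the 9 tested neutrophil genes. Whether the numbers pair the mice is not stated in the labels, and the libraries did not settle it. Deviations of same-numbered libraries correlated at 0.026, 0.25 and 0.36, and those of differently numbered libraries at -0.42 to 0.29. Depth limits Ly6g most, with 0 to 38 counts per library.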

Other observations

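Some transcripts of blood cell precursors that were too low for the edgeR test had the same highest library as the neutrophil genes; these were chosen after their values were seen. Ctsg, a protease of azurophil granules, had 4, 0 and 10 counts in control replicates 1, 2 and 3 and 39, 6 and 0 in sFlt1 replicates 1, 2 and 3. Ms4a3, of granulocyte progenitors, had 7, 1 and 1 counts in controls and 38, 12 and 1 in sFlt1 mice. Klf1, the erythroid transcription factor, had 6, 5 and 9 counts in controls and 40, 9 and 7 in sFlt1 mice. Slc4a1, the anion exchanger of red cells, passed that filter and was at 21.6 CPM in sFlt1 replicate 1 and 6.76 CPM or less in the others, a wider step than that of the globin Hbb-bs.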
